A study of Mus musculus with 24 samples.

Results

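This section describes 36 genes of the excitatory synapse in the mouse hippocampus, the ionotropic and metabotropic glutamate receptors, their auxiliary subunits and the scaffold proteins that hold them at the postsynaptic membrane. They were chosen by gene symbol from a list of 4 AMPA, 6 NMDA, 5 kainate, 1 delta and 6 metabotropic receptor genes, 4 auxiliary subunit genes, and 4 Dlg, 3 Shank and 3 Homer scaffold genes. All 36 were present among the 24411 rows of the count table, with 54 to 36949 counts in a library, and all 36 passed the filter on low counts in every comparison. Poly(A) RNA of whole hippocampus was measured in 6 groups of mice of both sexes. In the aging model, Old-Nano and old mice were wildtype C57/B6 mice of 20 months and young mice were the same strain at 9 months. Old-Nano mice had received Nanoligomers, antisense oligomers designed against both the DNA and the mRNA of NF-κB and NLRP3, to block transcription and translation. In the tauopathy model, all mice were 3 months old, and their strain label also reads C57/B6. The rTg4510 mice carry a mutant human tau transgene that is switched on in forebrain neurons by a Camk2a promoter driver, rTg4510-Nano mice had also received Nanoligomers, and LM mice were littermate controls. GEO's genotype field names rTg4510 for LM mice too, and they were taken as littermates from their other labels.

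Glutamate carries most fast excitation in the hippocampus. AMPA receptors open and close within milliseconds and set the size of the synaptic current, NMDA receptors admit calcium when the membrane is already depolarised and trigger plasticity, and kainate receptors act on both sides of the synapse. Metabotropic receptors signal through G proteins. Scaffold proteins of the Dlg, Shank and Homer families form layers beneath the membrane that link receptors to each other, to the actin cytoskeleton and to internal calcium stores. The mix of subunits differs between CA pyramidal cells, dentate granule cells, interneurons and glia, and in whole tissue fewer cells of a type and less RNA per cell cannot be told apart.

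The libraries held 17214974 to 27424344 counts. Each group had 4 libraries, but the columns of rTg4510 M2 and M3 were identical, so they were counted as 1 and n = 3 in that group. Replicates are given below in the order F1, F2, M2 and M5 for Old-Nano mice, F2, F3, M1 and M3 for old mice, F2, F4, M1 and M4 for young mice, F1, F2, M2 and M3 for rTg4510-Nano mice, F1, F3 and M2 for rTg4510 mice and F2, F3, M1 and M2 for LM mice. The letter F or M is that of the title. Levels are CPM, counts relative to library size after TMM scaling of all 23 distinct libraries. Of these, 5 were more than 1 log2 unit below the median library in the mean of 14 CA pyramidal cell markers: Old-Nano F1 (-1.67), old M1 (-1.20), young M4 (-2.38), rTg4510-Nano M2 (-2.43) and rTg4510 F1 (-1.34). Prox1, a transcription factor that defines dentate granule cells, ranged from 2.63 to 119 CPM over the 23 libraries. Markers of other regions were high in some of the same libraries, with olfactory bulb markers 5.44 log2 units above the median library in young M4 and 3.57 in old M1, striatal markers 3.87 above it in old M1, and hypothalamic markers 5.79 above it in rTg4510-Nano M2. Markers of other tissues were also high outside these 5 libraries, with hepatocyte markers 6.05 above the median library in old F3, 6.72 in young F4 and 6.08 in young M4, and pituitary markers 5.26 above it in rTg4510-Nano M3 and 3.80 above it in LM M1. The summed level of 15 choroid plexus markers was 4823 to 20218 CPM in the 3 rTg4510 libraries, against 47.9 to 272 CPM in LM mice and 44.0 to 125 CPM in rTg4510-Nano mice. How far the makeup of the libraries accounts for the differences described here was not tested, and the counts of members with an unadjusted p below 0.05 are also given without the 5 libraries low in CA pyramidal markers.

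The most abundant of the 36 transcripts belonged to the AMPA receptor complex and the scaffolds. Levels were compared between genes as CPM per kilobase of merged exons, the median over 23 libraries. Cnih2, a cornichon protein that escorts AMPA receptors to the surface and slows their closing, had the highest level at 282 CPM per kilobase, followed by Gria1 (190.2), which encodes the AMPA subunit that pyramidal cells insert during plasticity. Shank1 (101) and Dlg4 (79.5), both core scaffolds of the postsynaptic density, and Grik5 (64.6), a kainate subunit that needs a partner from Grik1 to Grik3 to form a channel, came next. Grm8 (0.94), a presynaptic metabotropic receptor, and Grik1 (2.32), a kainate subunit known mainly from interneurons, were lowest. Within the AMPA genes the order was Gria1, Gria2 (37.5), Gria3 (20.3) and Gria4 (9.69), and the lowest Gria1 library (57.0 CPM per kilobase, Old-Nano F1) lay just above the highest Gria2 library (56.2). The ranges of Gria2 and Gria3 overlapped, as did those of Gria3 and Gria4.

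**Figure D1:**
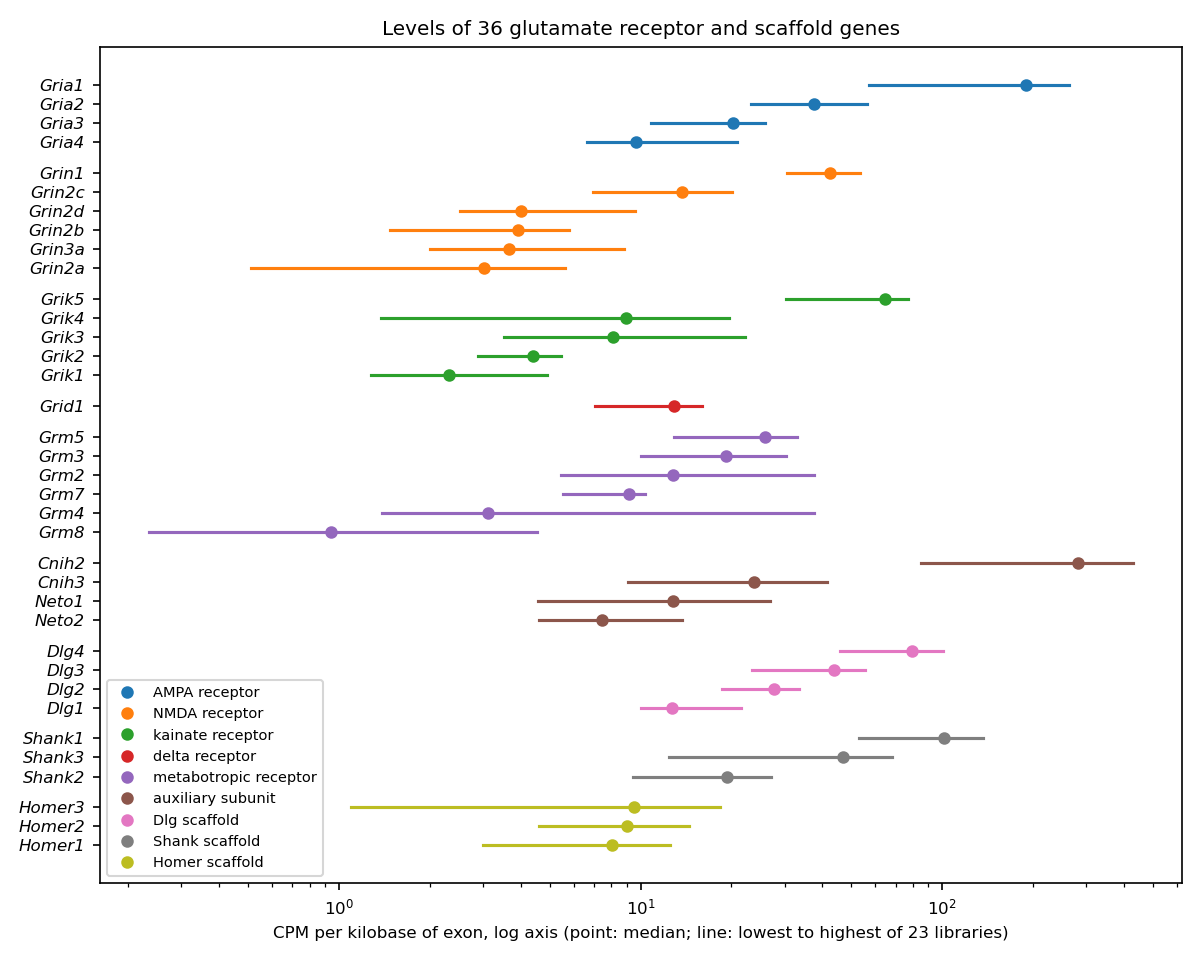
The horizontal axis is CPM per kilobase of exon on a log axis, with 1 row per gene in 9 classes. Points are medians and lines run from the lowest to the highest of 23 libraries. The points of Cnih2 (282) and Gria1 (190.2) lie furthest right and that of Grm8 (0.94) furthest left.

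Grin1, the obligatory subunit of every NMDA receptor, was at 42.4 CPM per kilobase and varied 1.75-fold between the lowest and the highest library, the least of all 36 members. Its partners that set channel kinetics lay lower, with Grin2c at 13.7, Grin2d at 4.02, Grin2b at 3.92 and Grin2a at 3.03 CPM per kilobase. Exons of Grin2a and Grin2b are long (17933 and 24842 bases), and any exon the tissue leaves out lowers a level per kilobase. Among metabotropic receptors, Grm5, which couples to calcium release, was highest at 25.8 CPM per kilobase, before Grm3 (19.2) and Grm2 (12.9), which lower cyclic AMP. Grid1, the only delta receptor, was at 12.9, and the Homer genes, which tie metabotropic receptors to Shank proteins, lay within a narrow band (Homer3 9.51, Homer2 9.00, Homer1 8.05). Grm4 varied most between libraries, 27.03-fold.

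Levels of the member highest in its class follow. Cnih2 (chromosome 19, 5092868 to 5098521 of GRCm38, minus strand) was lowest in libraries low in CA pyramidal markers. Cnih2 was at 137, 404, 381 and 459 CPM in Old-Nano mice, 338, 275, 291 and 519 CPM in old mice and 463, 586, 434 and 117 CPM in young mice. Among tauopathy libraries it was at 532, 277, 129.9 and 319 CPM in rTg4510-Nano mice, 234, 386 and 482 CPM in rTg4510 mice and 515, 345, 443 and 503 CPM in LM mice. Of the 5 libraries low in these markers, old M1 alone lay within the range of the other 18. Reads of Yif1a, which overlaps it on the opposite strand, cannot be told apart from its own where counting ignored strand, and the setting is not given in the sources used here.

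Gria1 (chromosome 11, 57011387 to 57330244 of GRCm38, plus strand) was lower in these 5 libraries than in any other. Values of Gria1 were 344, 1331, 920.2 and 1272 CPM in Old-Nano mice, 979, 760.5, 519 and 1347 CPM in old mice and 1377, 1461, 1212 and 635 CPM in young mice, and in the other model they were 1281, 928, 609.6 and 1149 CPM in rTg4510-Nano mice, 563, 1055 and 1261 CPM in rTg4510 mice and 1441, 961, 1412 and 1591 CPM in LM mice. The lowest library of each group except LM was one of those low in CA pyramidal markers. Grin1 had its lowest value in rTg4510-Nano M2 and its highest in LM M2. In the aging model it was at 411, 369, 417 and 461 CPM in Old-Nano mice, 373, 353, 429 and 463 CPM in old mice and 409, 482, 398 and 484 CPM in young mice. In the tauopathy model it was at 416, 353, 296 and 352 CPM in rTg4510-Nano mice, 357, 360.2 and 419.7 CPM in rTg4510 mice and 484, 364, 467 and 519 CPM in LM mice. It overlaps an antisense transcript, Grin1os.

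Among the kainate and delta genes, Grik5 had its lowest value in rTg4510-Nano M2. Grik5 was at 245, 355, 334 and 347 CPM in Old-Nano mice, 336, 274, 382 and 355 CPM in old mice and 396, 378, 397 and 353 CPM in young mice. Among tauopathy libraries it was at 374, 302, 157 and 283 CPM in rTg4510-Nano mice, 325, 243 and 311 CPM in rTg4510 mice and 345, 313, 259.5 and 319 CPM in LM mice. Grid1, whose protein bridges the synaptic cleft to presynaptic neurexin through cerebellins, had its lowest value in young M4. Values of Grid1 were 85.3, 92.4, 74.4 and 77.1 CPM in Old-Nano mice, 89.5, 56.3, 66.3 and 80.6 CPM in old mice and 86.1, 76.0, 95.4 and 42.0 CPM in young mice, and in the other model they were 67.9, 87.5, 81.5 and 83.7 CPM in rTg4510-Nano mice, 79.3, 56.4 and 70.7 CPM in rTg4510 mice and 70.5, 74.9, 69.9 and 77.7 CPM in LM mice. Its group ranges overlapped in each comparison.

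Grm5 had its lowest value in young M4 as well. In the aging model it was at 177, 301, 182 and 254 CPM in Old-Nano mice, 259, 158, 174 and 238 CPM in old mice and 305, 265, 277 and 133 CPM in young mice. In the tauopathy model it was at 278, 299, 189 and 297 CPM in rTg4510-Nano mice, 255, 226 and 286 CPM in rTg4510 mice and 310.0, 270.4, 288 and 339 CPM in LM mice. For the scaffolds, Dlg4 was lowest in rTg4510-Nano M2 and highest in old M1. Dlg4 was at 904, 1063, 1082 and 1168 CPM in Old-Nano mice, 1054, 969, 1329 and 1177 CPM in old mice and 1016, 1158, 1114 and 869 CPM in young mice. Among tauopathy libraries it was at 1106, 953, 606 and 843 CPM in rTg4510-Nano mice, 1013, 827 and 979.6 CPM in rTg4510 mice and 1163, 1056, 993 and 1181 CPM in LM mice. Shank1, the master scaffold that joins Dlg and Homer layers, was also lowest in rTg4510-Nano M2, with young M4 next. Values of Shank1 were 1002, 1017, 1113 and 1154 CPM in Old-Nano mice, 1067, 962, 863 and 1118 CPM in old mice and 1055, 1027, 1094 and 630.1 CPM in young mice, and in the other model they were 1389, 1070.3, 557 and 874 CPM in rTg4510-Nano mice, 1112, 876 and 1200.0 CPM in rTg4510 mice and 1435, 1092, 991 and 1311 CPM in LM mice.

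Homer3 gave the clearest split within groups. In the aging model it was at 5.49, 36.01, 30.1 and 34.1 CPM in Old-Nano mice, 25.7, 13.9, 8.11 and 40.9 CPM in old mice and 58.8, 63.2, 38.6 and 7.64 CPM in young mice. In the tauopathy model it was at 57.4, 17.8, 4.74 and 31.5 CPM in rTg4510-Nano mice, 3.78, 32.7 and 33.2 CPM in rTg4510 mice and 39.4, 21.1, 39.4 and 35.0 CPM in LM mice. The 5 libraries low in CA pyramidal markers had 3.78 to 8.11 CPM, and the other 18 had 13.9 to 63.2 CPM, without overlap.

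**Figure D2:**
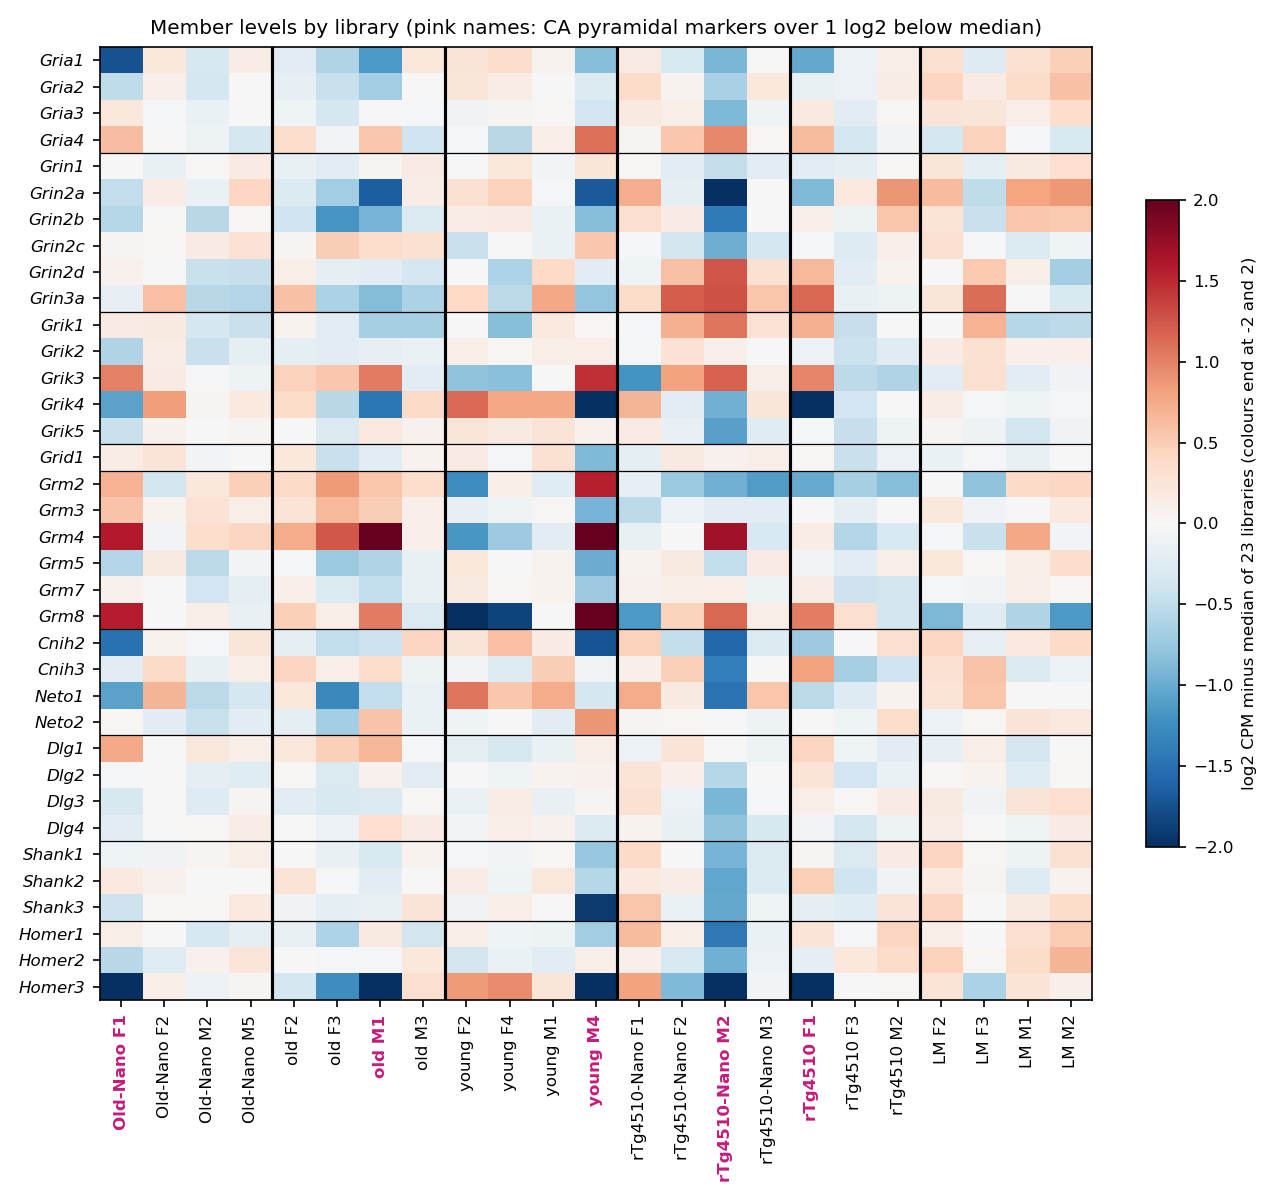
Each cell is the log2 CPM of a member (rows, by class) in a library (columns, by group) minus its median over 23 libraries, with colours ending at -2 and 2. Columns with pink names are the 5 libraries low in CA pyramidal markers, where Homer3, Grik4 and Gria1 are blue and Grm8, Grik3 and Gria4 are red.

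These 5 libraries held many of the extreme values, most of them in rTg4510-Nano M2 (15 members lowest and 3 highest) and young M4 (7 lowest and 7 highest). For all 36 members, the lowest or the highest of the 23 values was in one of the 5, which held for 78.2% of the 15360 genes tested across all groups. For 30 of 36 members the 5 and the other 18 overlapped in range. Homer3, Grik4 and Gria1 were lower in all 5 than in any of the other 18. Grik4, a high-affinity kainate subunit known from CA pyramidal cells, had 8.21 to 27.4 CPM in the 5 against 36.2 to 117 CPM in the others, and Gria1 had 344 to 635 CPM against 760.5 to 1591 CPM. Gria4, Grik3 and Grm8 were higher in all 5 than in any other. Grik3 had 142 to 198 CPM in the 5 against 31.6 to 127 CPM in the others, and Grm8 18.8 to 45.0 CPM against 2.32 to 13.0 CPM. For Gria4 the ranges were 88.641 to 132 CPM in the 5 and 41.8 to 88.636 CPM in the others, so that they nearly met. Grm4, which dampens transmitter release, reached 225 CPM in young M4 and 99.3 CPM in old M1, while the 18 other libraries had 8.33 to 44.2 CPM and rTg4510 F1, at 20.6 CPM, lay among them. The 5 were set apart after their markers were seen, so these ranges are a description.

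**Figure D3:**
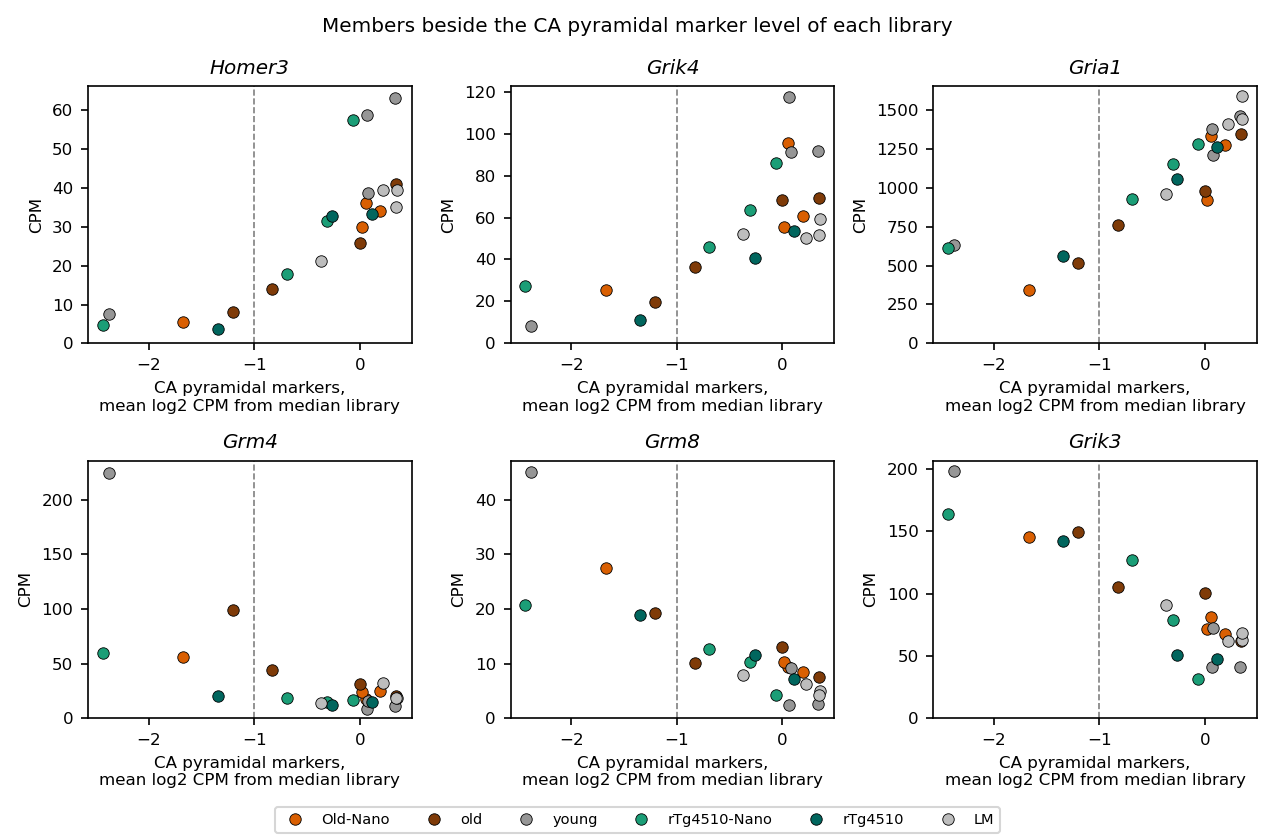
Each point is a library, with the mean log2 CPM of 14 CA pyramidal markers relative to the median library on the horizontal axis and the CPM of a member on the vertical axis. Left of the dashed line at -1 lie the 5 low libraries, with Homer3 at 3.78 to 8.11 CPM and Grm8 at 18.8 to 45.0 CPM.

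The comparison of old with young mice asked which members differ with age. Grik2, a kainate receptor subunit whose channel shapes excitability of pyramidal cells and their mossy fibre inputs, gave the smallest p among the members and was lower in old mice. It was at 50.9, 50.3, 52.0 and 53.1 CPM in old mice, against 63.1, 60.3, 63.8 and 63.9 CPM in young mice, and the groups did not overlap. The log2 fold change was -0.29 ± 0.07 (SE, n = 4 each). By edgeR's quasi-likelihood test it did not pass (adjusted p = 0.326, Benjamini-Hochberg over 15335 genes), and by DESeq2's Wald test it did (adjusted p = 0.00184). Leaving out any single library kept it between -0.31 and -0.27.

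NF-κB is a target of the treatment, so promoter windows are shown of the 4 members that DESeq2 called in a comparison, Grik2, Gria2 and Grm2, which were lower, and Grm8, which was higher in rTg4510 than in LM mice. The sequences are RefSeq's for GRCm38.p6 and run 5′ to 3′ on the gene's strand from 250 bases before to 50 bases after a start site, in lower case. Matches to the consensus κB site bound by NF-κB, or to the cyclic AMP response element TGACGTCA, on either strand, are in capitals. Windows were found for 24 of the 36 members, 38 in all. A κB match stood in 6 of these 38 windows (15.8%), those of Dlg3, Dlg4, Grik3, Grm8, Neto2 and Shank3, against 8.46% of all 32851 windows. The response element stood in 0 of the 38, against 1.79% of all windows. Matches of this kind describe letters only. Grm8 has 3 windows, and the one shown is the only one of them with a match. Neither motif is in the windows of Grik2, Gria2 and Grm2.
Grik2 chr10:49788705-49789004 minus strand: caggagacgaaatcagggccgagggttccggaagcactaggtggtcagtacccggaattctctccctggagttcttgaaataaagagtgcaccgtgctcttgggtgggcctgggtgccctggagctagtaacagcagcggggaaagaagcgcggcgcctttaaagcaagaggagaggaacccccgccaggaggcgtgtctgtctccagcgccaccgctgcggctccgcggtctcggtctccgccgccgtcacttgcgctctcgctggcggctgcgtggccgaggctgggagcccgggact
Gria2 chr3:80802786-80803085 minus strand: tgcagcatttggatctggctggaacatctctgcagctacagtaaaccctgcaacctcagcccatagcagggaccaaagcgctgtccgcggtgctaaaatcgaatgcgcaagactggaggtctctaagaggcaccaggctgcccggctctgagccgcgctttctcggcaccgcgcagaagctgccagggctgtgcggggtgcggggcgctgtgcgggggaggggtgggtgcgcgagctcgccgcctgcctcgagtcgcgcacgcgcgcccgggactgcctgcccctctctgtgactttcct
Grm2 chr9:106656060-106656359 minus strand: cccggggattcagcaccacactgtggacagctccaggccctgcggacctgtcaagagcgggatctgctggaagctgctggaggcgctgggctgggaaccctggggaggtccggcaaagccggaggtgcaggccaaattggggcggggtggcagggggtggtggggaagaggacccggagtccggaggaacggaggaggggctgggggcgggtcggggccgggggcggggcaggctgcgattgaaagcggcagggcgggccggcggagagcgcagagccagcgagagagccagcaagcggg
Grm8 chr6:28135097-28135396 minus strand: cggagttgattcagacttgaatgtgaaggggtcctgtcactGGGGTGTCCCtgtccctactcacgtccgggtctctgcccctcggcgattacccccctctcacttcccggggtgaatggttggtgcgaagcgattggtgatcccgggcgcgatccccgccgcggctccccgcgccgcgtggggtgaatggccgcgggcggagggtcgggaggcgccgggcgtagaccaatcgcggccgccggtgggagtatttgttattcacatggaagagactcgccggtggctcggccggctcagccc

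Grm3, a metabotropic receptor that lowers cyclic AMP and is made by astrocytes as well as neurons, was higher in old mice in all pairs of libraries. It was at 70.7, 92.2, 82.6 and 62.6 CPM in old mice, against 52.5, 55.3, 59.3 and 30.7 CPM in young mice. The log2 fold change was 0.64 ± 0.21 (SE, n = 4 each, edgeR adjusted p = 0.393). The lowest young value was that of young M4, and without the libraries low in CA pyramidal markers the difference was 0.43. The 12 astrocyte markers summed to 7152 to 9778 CPM in old mice, against 5160 to 7333 CPM in young mice, and the part of this in the Grm3 difference was not tested. Dlg1, a scaffold that traffics AMPA receptors, was at 159, 189, 217 and 134 CPM in old mice, against 121, 109, 124 and 149 CPM in young mice (0.47 ± 0.17 on the log2 scale, SE, edgeR adjusted p = 0.424), and the groups overlapped. Neto1, an auxiliary subunit that slows kainate receptor currents, was at 125, 43.9, 75.9 and 97.4 CPM in old mice, against 224, 155, 179 and 83.7 CPM in young mice (log2 fold change -0.91 ± 0.37, SE, edgeR adjusted p = 0.469).

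None of the 36 members passed edgeR's threshold of an adjusted p of 0.05 between old and young mice, where 0.013% of all genes did (2 higher, 0 lower). An unadjusted p below 0.05 was found for 4 members (2 higher, 2 lower), which is 11.1% of them against 10.3% of all genes. DESeq2 called 1 member, Grik2, and 1.53% of all genes, and gave 1 member no adjusted p. The groups did not overlap for 2 members, Grm3 and Grik2, 5.56% of them against 7.58% of all genes. Log2 fold changes of the members had their median at -0.14, with 25 of 36 lower in old mice, against -0.03 over all genes. All 4 AMPA genes and 5 of 6 NMDA genes had a negative log2 fold change and all 3 Shank genes a positive one, none past edgeR's threshold. Scaled to pan-neuronal markers in place of TMM, 3 of 4 AMPA genes, 5 of 6 NMDA genes and 0 of 3 Shank genes were negative. The sign of the Shank genes rested on young M4, the lowest young library for Shank1 (630.1 CPM), Shank2 (140 CPM) and Shank3 (114 CPM). By group medians all 3 were lower in old mice, at 1014 against 1041 CPM, 204 against 214 CPM and 399 against 420 CPM. Without old M1 and young M4, the libraries low in CA pyramidal markers, 15 members (41.7%) had an unadjusted p below 0.05, 7 higher and 8 lower, against 14.8% of all genes, 26 of 36 were lower, and again none passed after adjustment. Leaving out young M4 alone also gave 15 members, against 15.8% of all genes, and leaving out any other single library gave 2 to 5. Without old F3 the median log2 fold change was -0.07. Microglial markers had a positive log2 fold change in old mice for 12 of 12 genes (median 0.77), and their part in these values was not tested. The 7 members higher in old mice without old M1 and young M4 were Grm4, Grm2, Grik3, Grin2c, Dlg1, Grm3 and Homer2. The 8 lower without these libraries were Neto1, Homer3, Grik4, Grin2b, Homer1, Gria2, Grik2 and Grik5. Grm4 had a log2 fold change of 1.42 without the 2 libraries and -0.43 with them. The smallest p without them, that of Grik2, had an edgeR adjusted p of 0.211.

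**Figure D4:**
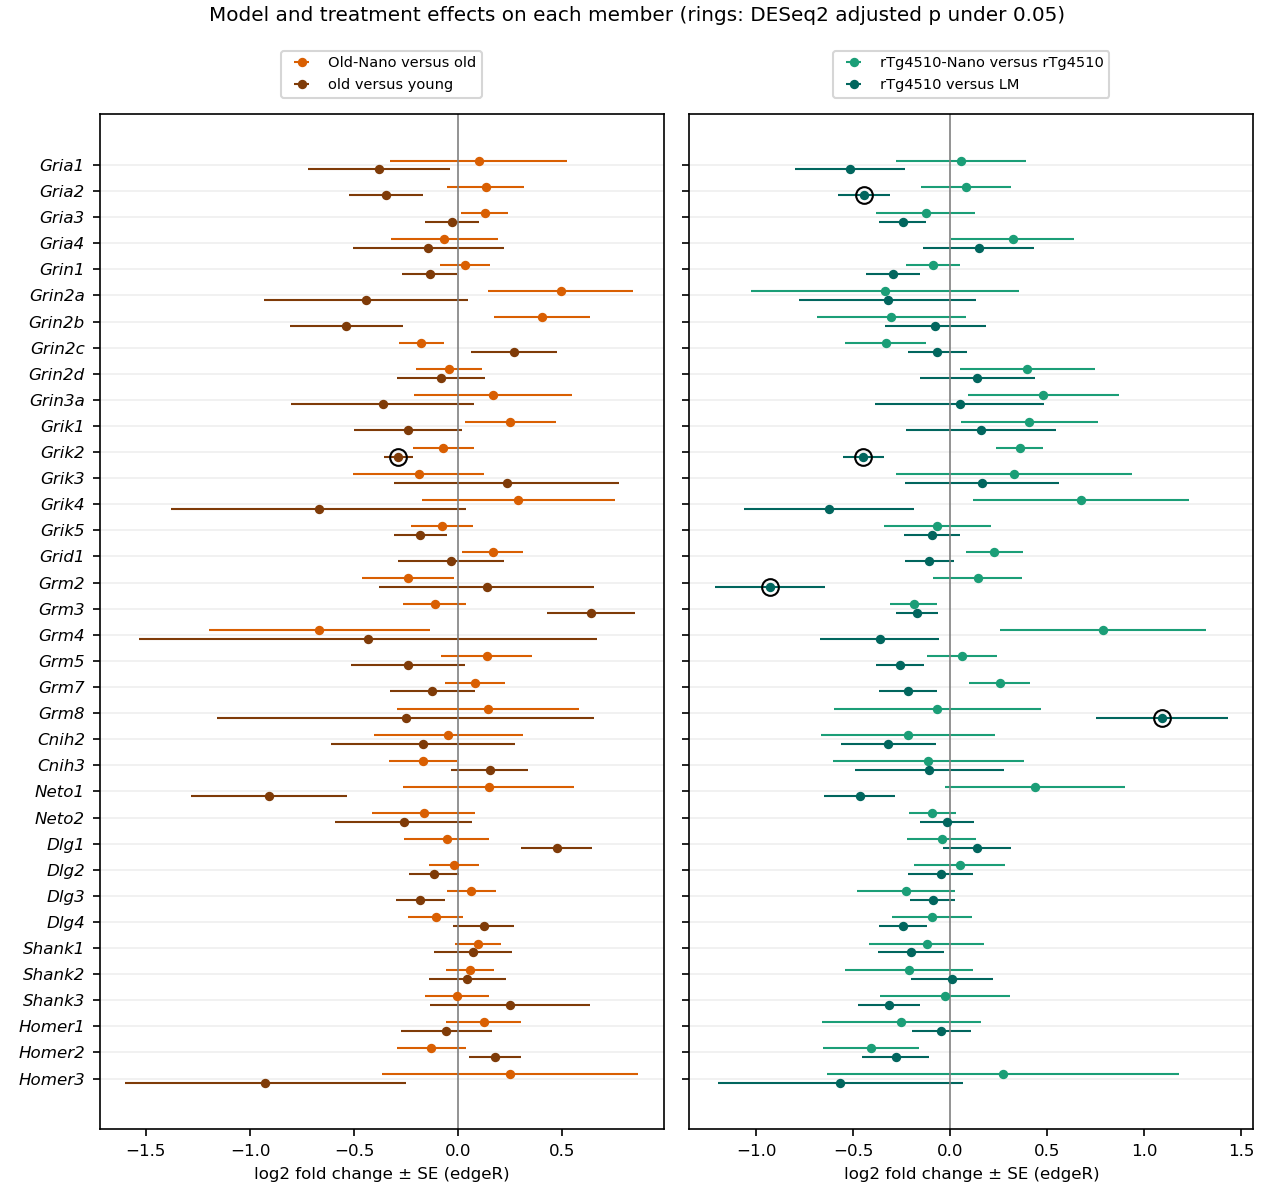
Points are log2 fold changes with SE from edgeR for each member, in the aging model (left) and in the tauopathy model (right), with treatment against untreated mice above the model against its control. Rings mark DESeq2 adjusted p under 0.05, which holds for Grik2 between old and young mice (-0.29) and for Gria2, Grik2, Grm2 and Grm8 between rTg4510 and LM mice.

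Treatment of old mice was examined by setting Old-Nano against old mice. No member stood out. The 3 with the smallest p were NMDA receptor subunits. Grin2b, the subunit dominant in the young brain, was at 65.5, 97.5, 66.1 and 99.5 CPM in Old-Nano mice, against 73.6, 43.2, 51.3 and 80.0 CPM in old mice (log2 fold change 0.40 ± 0.23, SE). Grin2a, which replaces it as synapses mature, was at 38.6, 60.1, 49.5 and 72.3 CPM in Old-Nano mice, against 44.8, 33.7, 17.4 and 60.6 CPM in old mice (0.49 ± 0.35). Grin2c was at 71.5, 70.4, 77.8 and 84.7 CPM in Old-Nano mice, against 71.7, 97.7, 88.2 and 85.9 CPM in old mice (-0.18 ± 0.11). The ranges of all 3 overlapped between the groups, and their edgeR adjusted p was 0.9999 each.

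Between Old-Nano and old mice, 0 of 36 members passed by edgeR and 0 by DESeq2, against 0% and 0% of all genes. Neither was there a member with an unadjusted p below 0.05 (0 of 36, against 1.21% of all genes) or with groups that did not overlap (0 of 36, against 0.708%). Their median log2 fold change was 0.04, with 19 of 36 higher, and SEs of single members ran from 0.11 to 0.62 with a median of 0.18. A member with an SE at that median is estimated to that precision only. Without Old-Nano F1 and old M1, again 0 members had an unadjusted p below 0.05, against 1.04% of all genes, and 23 of 36 were higher.

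Old-Nano mice were also set against young mice, a comparison that shares the Old-Nano libraries with the one above and the young libraries with that of old and young mice. Grm3 was at 87.3, 61.6, 71.9 and 64.5 CPM in Old-Nano mice, against 52.5, 55.3, 59.3 and 30.7 CPM in young mice, without overlap (log2 fold change 0.53 ± 0.21, SE, edgeR adjusted p = 0.451). Dlg1 was at 231, 136, 159 and 148 CPM in Old-Nano mice, against 121, 109, 124 and 149 CPM in young mice (0.42 ± 0.18, adjusted p = 0.472). Grik2 was at 38.3, 64.9, 43.1 and 50.8 CPM in Old-Nano mice, against 63.1, 60.3, 63.8 and 63.9 CPM in young mice (-0.35 ± 0.15, adjusted p = 0.475), and Old-Nano F2 lay above every young library. For these members the log2 fold changes of Old-Nano against young mice stood beside those of old against young mice as 0.53 and 0.64 for Grm3, 0.42 and 0.47 for Dlg1, and -0.35 and -0.29 for Grik2. No member passed by edgeR or DESeq2 (against 0.00651% and 1.7% of all genes), 3 had an unadjusted p below 0.05 (8.33%, against 10.5%), and 1, Grm3, did not overlap (2.78%, against 6.72%). The median log2 fold change of the members was -0.10. Leaving out single libraries gave 0 to 7 members, against 6.6% to 13.0% of all genes, with 7 without young M4 (19.4%, against 13.0%). Without both Old-Nano F1 and young M4, 7 members (19.4%, against 11.5% of all genes) had an unadjusted p below 0.05, Dlg1, Grin2c, Grm3 and Grm4 higher and Grik5, Grm7 and Homer3 lower, and none passed after adjustment.

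**Figure D5:**
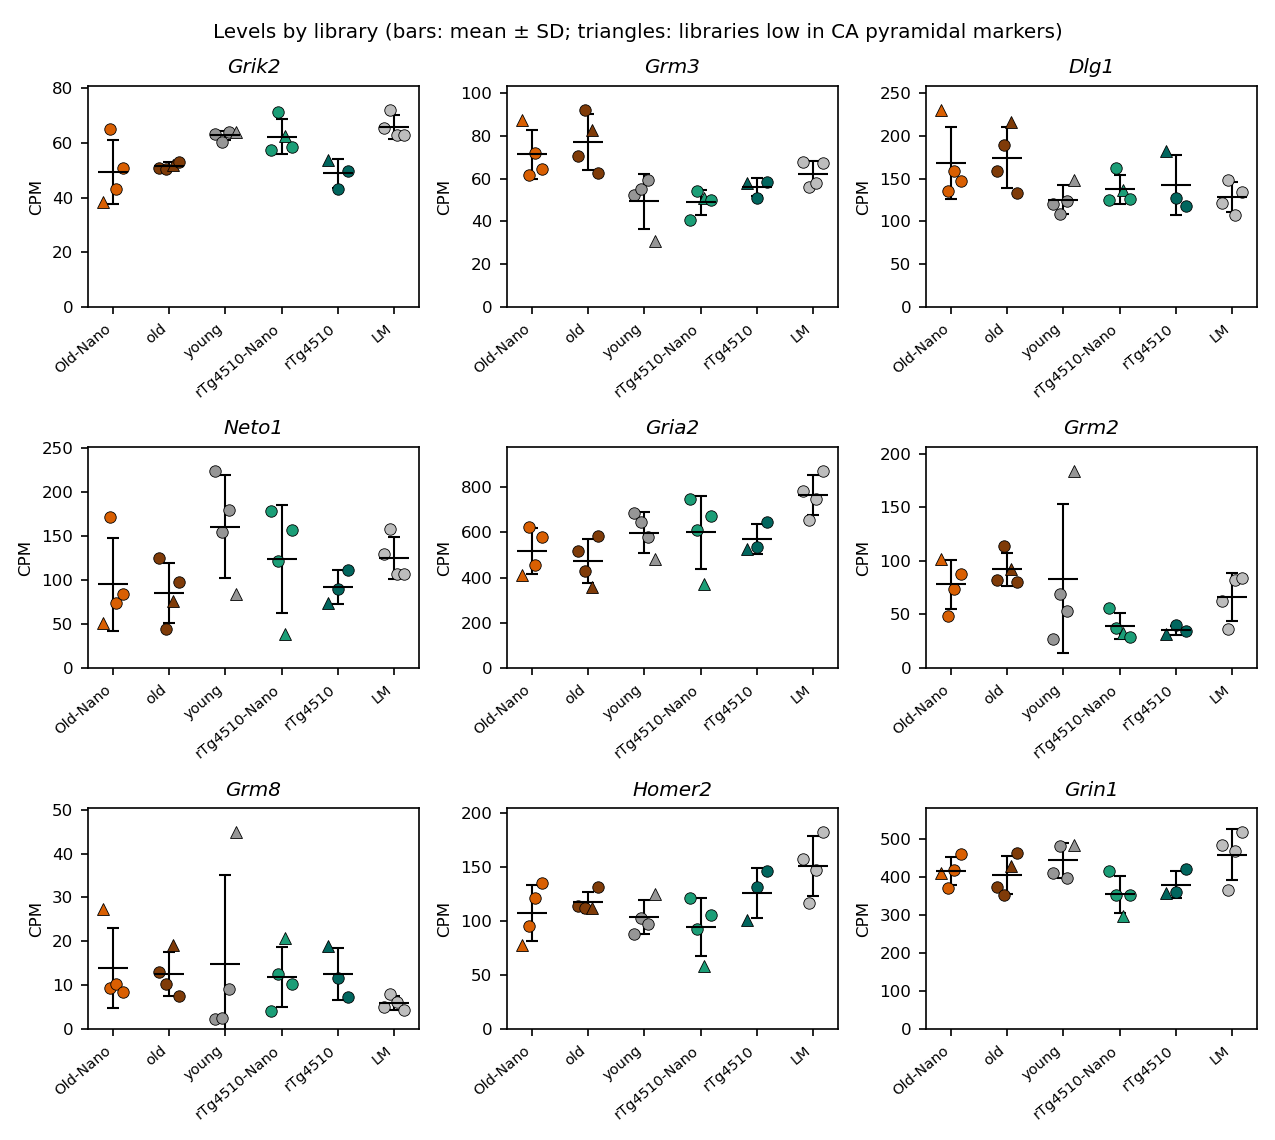
CPM of 9 members in each library of the 6 groups, with the mean and SD of each group, and triangles for the libraries low in CA pyramidal markers. Grik2 lies lower in old than in young mice and lower in rTg4510 than in LM and rTg4510-Nano mice, without overlap in these 3 pairs of groups.

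The comparison of rTg4510 with LM mice asked which members differ with tauopathy, and it was the comparison in which DESeq2 called the most members. Grik2 again had the smallest p. It was at 53.8, 43.2 and 49.6 CPM in rTg4510 mice, against 65.6, 72.1, 62.9 and 62.9 CPM in LM mice, without overlap. The log2 fold change was -0.45 ± 0.10 (SE, n = 3 and 4), with an edgeR adjusted p of 0.101 and a DESeq2 adjusted p of 0.0104. Gria2, the AMPA subunit that makes the channel impermeable to calcium, was also lower without overlap. It was at 528, 537 and 647 CPM in rTg4510 mice, against 785, 655, 749.6 and 874 CPM in LM mice (-0.44 ± 0.13, edgeR adjusted p = 0.186, DESeq2 adjusted p = 0.0423). The Grik2 gene spans chromosome 10, 49094833 to 49788766 of GRCm38, minus strand, and Gria2 chromosome 3, 80681450 to 80802835 of GRCm38, minus strand.

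Among the metabotropic receptors, Grm2, which restrains release from mossy fibre and perforant path terminals, was at 31.4, 39.8 and 34.7 CPM in rTg4510 mice, against 62.9, 35.95, 82.0 and 84.2 CPM in LM mice. The groups overlapped at LM F3. The log2 fold change was -0.93 ± 0.28 (SE), with an edgeR adjusted p of 0.199 and a DESeq2 adjusted p of 0.0262. Grm8 went the other way, at 18.8, 11.6 and 7.19 CPM in rTg4510 mice, against 4.99, 7.89, 6.16 and 4.21 CPM in LM mice (1.09 ± 0.34, edgeR adjusted p = 0.2, DESeq2 adjusted p = 0.0416). Its highest value was in rTg4510 F1, a library low in CA pyramidal markers, and without that library the log2 fold change was 0.69. Neto1 was at 73.6, 89.9 and 112 CPM in rTg4510 mice, against 129.6, 158, 107 and 106 CPM in LM mice (-0.47 ± 0.18, edgeR adjusted p = 0.303).

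No member passed by edgeR between rTg4510 and LM mice, where 0.917% of all genes did (127 higher, 12 lower). DESeq2 called 4 members (11.1%), Grik2, Gria2 and Grm2 lower and Grm8 higher, against 5.02% of all genes. An unadjusted p below 0.05 was found for 5 members (13.9%, 1 higher and 4 lower), against 14.1% of all genes, and the groups did not overlap for 2 members (5.56%), against 13.4%. The median log2 fold change of the members was -0.19, with 28 of 36 lower in rTg4510 mice, against -0.02 over all genes. Scaled to pan-neuronal markers in place of TMM, 21 of 36 were lower and the median was -0.07, on a scale where the median of all genes was 0.10. With both identical columns kept as separate libraries, Grik2 passed by edgeR (adjusted p = 0.0352). Leaving out an rTg4510 library left 2 in that group. Without rTg4510 F1, 8 members had an unadjusted p below 0.05, 7 lower and 1 higher, 22.2% of them against 17.3% of all genes, and 33 of 36 were lower. Without rTg4510 F3, 20 of 36 were lower and the median was -0.08, and without LM F3, 9 members had an unadjusted p below 0.05 (25.0%, against 15.3% of all genes). Without rTg4510 F1, with F3 and M2 alone against 4 LM libraries, Grik2 had a log2 fold change of -0.51 and an edgeR adjusted p of 0.0507. All 3 Homer genes and all 4 auxiliary subunit genes had a negative log2 fold change, none past the threshold, and with pan-neuronal scaling it was negative for 2 of 3 and 3 of 4. The choroid plexus markers were higher in all 3 rTg4510 libraries by the ranges given above, and their part in these differences was not tested. Cell type markers differed too, with a negative log2 fold change for 14 of 14 CA pyramidal markers (median -0.50) and 10 of 12 dentate granule markers (median -0.44), and a positive one for 11 of 12 microglial markers (median 0.51, 9 with an unadjusted p below 0.05). Their part was not tested either.

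Treated rTg4510 mice were set against untreated rTg4510 mice, which share their libraries with the comparison above. Grik2 was the only member with an unadjusted p below 0.05. It was at 57.2, 71.2, 62.3 and 58.4 CPM in rTg4510-Nano mice, against 53.8, 43.2 and 49.6 CPM in rTg4510 mice, without overlap (log2 fold change 0.36 ± 0.12, SE, n = 4 and 3, unadjusted p = 0.0197, edgeR adjusted p = 0.709, DESeq2 adjusted p = 0.34). Its 3 log2 fold changes in this model were 0.36 for rTg4510-Nano against rTg4510, -0.45 for rTg4510 against LM and -0.08 for rTg4510-Nano against LM. Homer2, a scaffold of metabotropic receptors, was at 121, 92.2, 58.2 and 105 CPM in rTg4510-Nano mice, against 101, 131 and 146 CPM in rTg4510 mice (-0.41 ± 0.25, edgeR adjusted p = 0.943). Grm7, a low-affinity receptor at release sites, was at 57.2, 58.1, 58.7 and 50.3 CPM in rTg4510-Nano mice, against 59.6, 40.3 and 41.8 CPM in rTg4510 mice (0.25 ± 0.16, edgeR adjusted p = 0.943).

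Between rTg4510-Nano and rTg4510 mice, 0 of 36 members passed by edgeR and 0 by DESeq2, against 0.0456% and 1.47% of all genes. The single member with an unadjusted p below 0.05 was 2.78% of the set, against 5.57% of all genes, and the single member without overlap was again Grik2 (2.78%, against 6.99%). Over the members the log2 fold change was -0.03 in the median, with 17 of 36 higher, or 12 of 36 with pan-neuronal scaling. Without rTg4510-Nano M2 and rTg4510 F1 it was 0.17, with 25 of 36 higher, and 7 members had an unadjusted p below 0.05 (19.4%, against 13% of all genes). That left rTg4510-Nano F1, F2 and M3 against rTg4510 F3 and M2 alone. The 7 members were Cnih3, Grm7, Grin3a, Neto1, Grik2 and Dlg2, higher, and Homer2, lower. Grin3a, whose subunit lowers calcium flow through NMDA receptors, had the largest of these log2 fold changes at 0.90, and Cnih3 had 0.75. Their smallest edgeR adjusted p was 0.178, that of Cnih3. Leaving out single libraries gave 0 to 3 members with an unadjusted p below 0.05, against 2.91% to 8.98% of all genes. The 3 members were found without rTg4510 F1 (8.33%, against 8.98%). Medians ran from -0.12 without rTg4510 F3 to 0.09 without rTg4510-Nano M2. Choroid plexus markers had a negative log2 fold change for 15 of 15 genes (median -5.31) and microglial markers for 12 of 12 (median -0.27). It was positive for 13 of 13 hypothalamic markers (median 5.85), which were highest in rTg4510-Nano M2, and for 22 of 24 pan-neuronal markers (median 0.16). The part of these markers was not tested.

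In rTg4510-Nano against LM mice, Grm3 was lower without overlap. It was at 40.6, 54.1, 50.8 and 49.9 CPM in rTg4510-Nano mice, against 67.6, 56.0, 58.1 and 67.1 CPM in LM mice (log2 fold change -0.35 ± 0.11, SE, n = 4 each, edgeR adjusted p = 0.613). Homer2 was at 121, 92.2, 58.2 and 105 CPM in rTg4510-Nano mice, against 157, 116, 147 and 183 CPM in LM mice (-0.68 ± 0.23, adjusted p = 0.613). Grin1 was at 354 ± 49.0 CPM (SD) in rTg4510-Nano mice, against 459 ± 66.2 CPM in LM mice (-0.37 ± 0.14, adjusted p = 0.613). Grm2 (-0.78 ± 0.30) and Grm8 (1.03 ± 0.43) had unadjusted p values of 0.0306 and 0.0429, and against LM mice the untreated rTg4510 libraries had -0.93 and 1.09 for the same genes. No member passed by edgeR or DESeq2 (against 0.0263% and 0.362% of all genes). An unadjusted p below 0.05 was found for 5 members (13.9%, against 7.98%), and 1 member did not overlap (2.78%, against 4.96%). Their median log2 fold change was -0.20, and -0.07 without rTg4510-Nano M2, when 2 members, Grm3 and Homer2, both lower, had an unadjusted p below 0.05 (5.56%, against 7.65% of all genes). Without rTg4510-Nano F1 there were 12 such members (33.3%, against 12.6% of all genes), and without LM F3 there were 9 (25.0%, against 10.6%). Without any other single library there were 2 or 3 (5.56% or 8.33%, against 4.08% to 7.65%). Dentate granule markers had a negative log2 fold change for 12 of 12 genes (median -1.04, 7 with an unadjusted p below 0.05) and CA pyramidal markers for 13 of 14 (median -0.63), and their part was not tested.

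Whether the models differ in their effect was tested in a fit of all 6 groups. The effect of age minus that of tauopathy was 0.79 ± 0.25 (SE) for Grm3, with an unadjusted p of 0.00435 and an edgeR adjusted p of 0.194. Grm2 (1.05 ± 0.60) and Dlg4 (0.35 ± 0.22) came next, with unadjusted edgeR p values of 0.0963 and 0.135. In the aging model Grm2 was at 81.8, 114, 92.3 and 80.1 CPM in old mice, against 26.6, 69.0, 53.1 and 184 CPM in young mice, where young M4 was highest. No member passed by edgeR or DESeq2, against 0.716% and 1.66% of all genes, and 1 had an unadjusted p below 0.05 (2.78%, against 9.76%). Without the 5 libraries low in CA pyramidal markers, 1 member passed, Grm4, against 2.08% of all genes, and 7 members (19.4%, against 15.2%) had an unadjusted p below 0.05. Without young M4 alone there were 4 (11.1%, against 11.2%). For Grm4, the difference between the effects without the 5 libraries was 1.99 on the log2 scale (edgeR adjusted p = 0.0441). In their own fits the effects were 1.42 for old against young mice and -0.57 for rTg4510 against LM mice. Of the rTg4510 group, F3 and M2 alone remained. With all libraries the difference for Grm4 was -0.08 ± 1.20 (SE). Leaving out the 5 libraries was chosen after the data were seen. They held the highest Grm4 values, 225 CPM in young M4, 99.3 CPM in old M1, 59.6 CPM in rTg4510-Nano M2 and 56.1 CPM in Old-Nano F1. In rTg4510 F1 Grm4 was at 20.6 CPM, within the range of the other libraries.

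The effect of treatment in old mice minus that in rTg4510 mice was -0.42 ± 0.17 (SE) for Grik2 (unadjusted p = 0.0268, edgeR adjusted p = 0.9999). For Grin2b it was 0.71 ± 0.47 and for Dlg3, a scaffold of early NMDA receptors, 0.30 ± 0.25, with unadjusted edgeR p values of 0.141 and 0.243. Dlg3 was at 205, 256, 215 and 266 CPM in Old-Nano mice, against 222, 208, 211 and 259.6 CPM in old mice, and at 316, 235, 136 and 253 CPM in rTg4510-Nano mice, against 282, 261 and 288 CPM in rTg4510 mice. No member passed by edgeR or DESeq2 (against 0.345% and 0.664% of all genes), and 1 had an unadjusted p below 0.05 (2.78%, against 4.06%). Without the 5 libraries low in CA pyramidal markers there were 3 (8.33%, against 7.67%). The difference was positive for 17 of 36 members with TMM scaling and for 23 of 36 with pan-neuronal scaling.

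A further 80 genes of the same synapses were counted beside the members, 25 that assemble or cluster AMPA receptors, 25 of the postsynaptic density and 30 synaptic adhesion genes. None of the 80 passed by edgeR in any of the 6 comparisons of groups, and DESeq2 called some of them in 4 of the comparisons. An unadjusted p below 0.05 was found for 8 (10%, against 10.3% of all genes) in old against young mice, 0 (against 1.21%) in Old-Nano against old mice and 3 (3.75%, against 10.5%) in Old-Nano against young mice. In the tauopathy model it was found for 16 (20%, against 14.1%) in rTg4510 against LM mice, 3 (3.75%, against 5.57%) in rTg4510-Nano against rTg4510 mice and 8 (10%, against 7.98%) in rTg4510-Nano against LM mice. Gsg1l, an AMPA receptor subunit that slows recovery from desensitisation, was higher in the older mice. It was at 88.9, 89.6, 116 and 54.3 CPM in old mice, against 14.2, 28.6, 41.2 and 21.1 CPM in young mice, without overlap (1.73 ± 0.35, DESeq2 adjusted p = 0.000518, edgeR adjusted p = 0.305). In Old-Nano mice it was at 76.2, 38.3, 68.2 and 56.2 CPM (1.18 ± 0.34 against young mice, DESeq2 adjusted p = 0.048). Grip1, which anchors AMPA receptors, was at 26.97, 18.6, 21.9 and 20.1 CPM in old mice, against 34.8, 25.8, 32.4 and 57.8 CPM in young mice (-0.79 ± 0.25, edgeR adjusted p = 0.382). The latrophilins Adgrl2 (0.99 ± 0.35 in Old-Nano against young mice) and Adgrl3 (0.18 ± 0.10 in Old-Nano against old mice) had edgeR adjusted p values of 0.414 and 0.9999.

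Between rTg4510 and LM mice, DESeq2 called 4 of the 80 (5%, against 5.02% of all genes), each lower. Nptx1, a secreted pentraxin that clusters AMPA receptors, was at 523, 532 and 644 CPM in rTg4510 mice, against 912, 723, 1062 and 1085 CPM in LM mice (-0.76 ± 0.17, DESeq2 adjusted p = 0.00079). The others were adhesion proteins of the postsynaptic side. Lrrtm1 was at 72.6, 65.9 and 86.9 CPM in rTg4510 mice, against 117, 98.6, 108 and 109.6 CPM in LM mice (-0.54 ± 0.12, 0.00244), Flrt3 had a log2 fold change of -0.56 ± 0.10 (0.00107) and Lrrtm4 of -0.75 ± 0.21 (0.0304), with DESeq2 adjusted p values in parentheses. Lrrtm4 was also lower in rTg4510-Nano mice, at 17.7, 22.5, 25.8 and 22.2 CPM, against 31.3, 30.9, 43.1 and 49.6 CPM in LM mice (-0.81 ± 0.18, DESeq2 adjusted p = 0.0332). Flrt2 (-0.44 ± 0.13) and Flrt3 (0.62 ± 0.19) had the smallest p in rTg4510-Nano against rTg4510 mice (edgeR adjusted p = 0.52 and 0.549), and Lin7b, a scaffold partner, had -0.56 ± 0.19 against LM mice (adjusted p = 0.613). In the fit of all groups, Gsg1l (1.76 ± 0.65) and Grip1 (-0.87 ± 0.33) had the smallest p for age minus tauopathy, and Flrt2 (0.91 ± 0.40) and Shisa9 (-0.64 ± 0.44) for the treatment effects, at edgeR adjusted p of 0.329, 0.362, 0.9999 and 0.9999. The median log2 fold change in rTg4510 against LM mice was -0.16 for the AMPA genes, -0.23 for the postsynaptic density genes and -0.07 for the adhesion genes, against -0.02 over all genes.

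The remaining members had no p among the 3 smallest and no call. Among them were Gria3 and Gria4, the NMDA genes Grin2d and Grin3a, the kainate genes Grik1, Grik3 and Grik4, the auxiliary genes Cnih3 and Neto2, and the scaffolds Dlg2, Shank2, Shank3 and Homer1. The smallest edgeR adjusted p of these genes in a comparison of groups was 0.423, that of Gria3 in rTg4510 against LM mice. Shank3, whose loss of 1 copy causes a human neurodevelopmental syndrome, was at 422 ± 70.8 CPM (SD) in Old-Nano mice, 423 ± 63.5 CPM in old mice and 356 ± 163 CPM in young mice, where young M4 had 114 CPM and the other young libraries 411 to 469 CPM. Homer1, which has a short activity-induced form that gene counts do not separate, was at 94.6 ± 47.1 CPM in rTg4510-Nano mice, 113 ± 17.4 CPM in rTg4510 mice and 115 ± 17.5 CPM in LM mice. Counts of Grin2d, Homer3, Shank1 and Dlg2 may hold reads of genes on the opposite strand that overlap them, and those of Grin3a reads of Ppp3r2, which lies within it on the same strand.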

How the data were processed

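Poly(A) RNA of whole hippocampus was sequenced by the authors, and reads passed fastp and then STAR, with mm10 as genome. The authors deposited raw counts per gene, 1 column per library. Which program counted reads, and whether by strand, is not given in the sources used here. Labels gave the groups. Of 24 columns, 23 were distinct. The libraries held 17214974 to 27424344 counts.

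Each pair of groups was fitted with edgeR 4.0.16 (TMM scaling, robust quasi-likelihood test, two-sided) on genes whose normalized counts averaged 10 or more, with Benjamini-Hochberg adjustment over all genes tested and a threshold of 0.05. SE is the log2 fold change over the root of F. Differences between effects were fitted over all 6 groups. DESeq2 1.42.0, other scalings and filters, left-out libraries and a replicate block were alternatives. Leaving out the 5 libraries low in CA pyramidal markers was chosen after seeing the data. The members and lists were chosen with earlier results of these data known. Values in every library were given for members past a threshold, the 3 with the smallest p in a comparison and the highest of each class per kilobase. From the other synaptic lists, genes past a threshold, or else up to 2 with the smallest p, were named. Labels do not say which mice share a litter, and p-values measure the spread between these libraries. The fit was tested on simulated data with known changes. Of 2-fold changes it found 18% in rTg4510-Nano against rTg4510 mice, 31% in old against young mice and 50% to 61% in the other comparisons. Of 4-fold changes it found 75% to 87%. Most smaller changes would therefore be missed. R 4.3.3 and Python 3.11.15 were used.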

Additional observations from a re-analysis of the deposited data

Results flagged for a closer look

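In groups of 4 libraries, 9 of 180 sets of member values (5%) had 1 library far from the others by Dixon's test, where chance gives about 1 in 20, and 7 of the 9 were in libraries low in CA pyramidal markers. In young M4, Grm4 was at 225 CPM (8.33 to 16.1 in the other young libraries), Grm8 at 45.0 CPM (2.32 to 9.22) and Neto2 at 83.9 CPM (39.0 to 45.9), while Shank1 was at 630.1 CPM (1027 to 1094) and Shank3 at 114 CPM (411 to 469). Grm8 was at 27.5 CPM in Old-Nano F1 (8.39 to 10.2 in the other Old-Nano libraries). Grm4 was at 59.6 CPM in rTg4510-Nano M2 (15.0 to 18.6 in the others). The remaining 2 were in old mice, Grin3a at 67.7 CPM in F2 (24.7 to 29.2 in the others) and Homer2 at 131 CPM in M3 (112 to 114). The cause was not tested.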

How the results depend on the processing

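Since edgeR called no member with all libraries, an alternative could only add calls. These were counted for members called by DESeq2 or among the 3 smallest p of a comparison. Of their values, 464 kept their side of the threshold and 6 passed it under an alternative. The call of Grm4 given below is outside this count. The number of members called was 0 by edgeR in each comparison. By DESeq2's Wald test it was 1 in old against young mice and 4 in rTg4510 against LM mice. With both identical rTg4510 columns kept, it was 1 in rTg4510 against LM mice (Grik2). Without the libraries low in CA pyramidal markers, an alternative added after seeing the data, it was 1 for the effect of age minus that of tauopathy (Grm4). Leaving out any single library gave 0 to 0 in every comparison. The cause of these changes was not tested. Labels reuse a letter and number between groups, but nothing ties such mice together, and deviations of same-named libraries correlated between -0.30 and 0.50. With the name as a replicate block, 0 members were called in the 4 comparisons with at least 2 shared names. An unadjusted p below 0.05 was found under the block for 17 members in old against young mice (47.2%, against 11.03% of all genes). It was found for 4 in rTg4510 against LM mice (11.1%, against 11.7%) and 1 in rTg4510-Nano against rTg4510 mice (2.78%, against 2.15%). In rTg4510-Nano against LM mice there were 15 (41.7%, against 12.5%). The median log2 fold change in rTg4510-Nano against LM mice was -0.62 with the block, against -0.20 without it. A block comparison rests on the libraries with shared names only, here 2 names in each. These were F2 and M1 in old against young mice, and F2 and M2 in rTg4510-Nano against LM mice. Of these, old M1 and rTg4510-Nano M2 are low in CA pyramidal markers. Effects of the block and of the smaller set of libraries cannot be told apart. No paired analysis was possible for Old-Nano against old or young mice because they share 1 name only. Scaling to pan-neuronal markers put the median of all genes at 0.10 in rTg4510 against LM mice and at -0.14 in rTg4510-Nano against rTg4510 mice, where the members' medians were -0.07 and -0.17.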
